A study of Mus musculus with 4 samples.

Results

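The transcripts described here were the well-counted short ones in a CLIP-seq data set of the RNA helicase DDX3X: annotated transcripts of 200 nt to under 500 nt with at least 200 counts summed over 4 libraries. Of 59988 transcripts in the deposited tables, 49277 had at least 1 count and 1109 of those had a length in this window. From these, 51 transcripts whose identifiers start with uc007p or uc008q were left out by the rule, 39 of them at or above the count minimum. Another 822 fell under the minimum, and 236 transcripts remained, 21.3% of the 1109. The members just inside and outside the limits lay close together: the lowest summed count kept was 200 and the highest left out was 198, while the shortest member was 207 nt and the nearest well-counted transcripts outside the window were 193 and 500 nt long.

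The cells were mouse embryonic fibroblasts of wild-type genotype (labelled Wt), grown in culture. One group received the vehicle DMSO and the other 400 nM thapsigargin for 1 h, and each group had 2 libraries, numbered replicate 1 and replicate 2. Cells of both groups were detached with trypsin, crosslinked with ultraviolet light on ice and precipitated with a rabbit polyclonal antibody against DDX3X that the submitters made themselves. The labels do not say whether the replicates came from separate cultures, so the p-values measure the spread between these libraries, which may be technical. The deposited tables pair no identifier with a gene name, so transcripts are given by identifier or length, and the labelled cell type was not checked against marker genes.

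DDX3X is a DEAD-box protein that uses ATP to open RNA duplexes, and it is best known for helping ribosomes start on messages with structured leaders and for joining stress granules. Thapsigargin blocks the calcium pump of the endoplasmic reticulum, and the loss of stored calcium causes unfolded proteins to build up and lowers translation initiation. In CLIP, ultraviolet light fixes protein to the RNA it touches, and the counts of the recovered fragments follow both how much of an RNA is present and how much of it is bound. Annotated transcripts of this size class generally include messages for small proteins, structured non-coding RNAs, and fragments or short isoforms of longer genes. Neither input nor total RNA was analysed here, and a change in binding and a change in the amount of an RNA cannot be told apart.

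The libraries held 10088691 counts (DMSO replicate 1), 2405801 (DMSO replicate 2), 10463359 (thapsigargin replicate 1) and 3902900 (thapsigargin replicate 2). The replicate 2 libraries were the shallower in both groups, so depth and replicate number cannot be told apart. With DMSO the median member had 205 counts in replicate 1 and 51.5 in replicate 2, and with thapsigargin 214 and 80.5. Summed counts ran from 200 to 14301, with a median of 575 and quartiles of 344 and 1094. Every member had a count in every library, the lowest being 4 in DMSO replicate 2, and all 236 passed the filter on low counts.

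A minimum on counts admits a short transcript only at a high count per base, so the levels per length are a description that the rule fixes. The members' mean TPM (the deposited unit, counts corrected for length and library size) had a median of 118 and ran from 31.6 to 2920. The members were uneven among themselves. The 3 most counted held 17.5% and 19.6% of all member counts with DMSO and 10.9% and 11.8% with thapsigargin. The ranking by TPM was more alike within a treatment than between treatments: of the 10 highest members of a library, 9 were shared by both DMSO libraries and 8 by both thapsigargin libraries, while a DMSO and a thapsigargin library shared 5 or 6.

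With thapsigargin, 30 members (12.7%) were called higher and 20 (8.47%) lower. A call is an adjusted p under 0.05 by edgeR's quasi-likelihood F test, after Benjamini-Hochberg adjustment that covered all 29059 transcripts tested. In the background, 7.41% of all tested transcripts were called, 3.74% higher and 3.67% lower. Among the 20082 tested transcripts that also had at least 200 counts, 10.1% were called, 5.0% higher and 5.1% lower. The members were thus called more often than either background, in both directions. Their median log2 fold change was 0.03, against 0.00 over all tested transcripts. The log2 fold changes of the members called higher ran from 0.55 to 1.99 with a median of 0.94, and 14 of them exceeded 1. Those called lower ran from -0.42 to -1.47 with a median of -0.79, and 6 of them were below -1. An unadjusted p under 0.05 in the same edgeR test was reached by 95 members, 51 higher and 44 lower. The share of all tested transcripts that reached it was not counted, so these numbers do not set the members apart. On simulated counts whose dispersion varied between transcripts, the test's share of false calls exceeded its nominal level.

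Normalised values of the 2 groups did not overlap for 145 members (61.4%), against 51.2% of all tested transcripts and 55.5% of those with at least 200 counts. The thapsigargin values both lay above the DMSO values for 79 members (33.5%, against 26.1% of all tested and 27.3% of those with at least 200 counts) and both below for 66 (28.0%, against 25.2% and 28.1%). All 50 called members were among them. On the authors' TPM scale, tested with limma, 25 members were called, 10 higher and 15 lower, where 2.37% of all transcripts were called (0.881% higher and 1.49% lower), and the median of all transcripts moved by -0.15. The median member was at -0.13 on that scale, 0.02 above the median of all transcripts. Of the called members 60.0% were thus higher with edgeR on counts, against 50.4% of the calls over all tested transcripts. With limma on TPM, a setting that changes both the unit and the test, 40.0% were higher, against 37.2%. With the scaling alone changed in edgeR, 59.2% were higher under RLE, against 49.9% over all tested transcripts. Under library-size scaling 67.3% were higher, nearly the same as the 67.2% over all tested transcripts. DESeq2 called 31 members, 22 higher and 9 lower (71.0% higher), where it called 3.69% of all transcripts, 1.86% higher and 1.83% lower. With DMSO replicate 2 left out, the members' median log2 fold change was 0.053, against 0.003 over all tested transcripts. Without thapsigargin replicate 1 it was 0.051, against -0.007.

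How often a member was called followed its count. Of the 104 members with 200 to under 500 counts, 5 were called higher and 6 lower, 10.6% in all against 4.33% of all tested transcripts in that count range. Of the 67 with 500 to under 1000 counts, 8 were higher and 5 lower, 19.4% against 8.82%. Of the 65 with at least 1000 counts, 17 were higher and 9 lower, 40.0% against 18.4%. The median standard error of the log2 fold change fell across these ranges, from 0.29 to 0.21 and 0.16. Effect size differed as well: the median absolute log2 fold change was 0.34, 0.33 and 0.44 in the members and 0.29, 0.25 and 0.25 in all tested transcripts of the same count ranges.

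**Figure D1:**
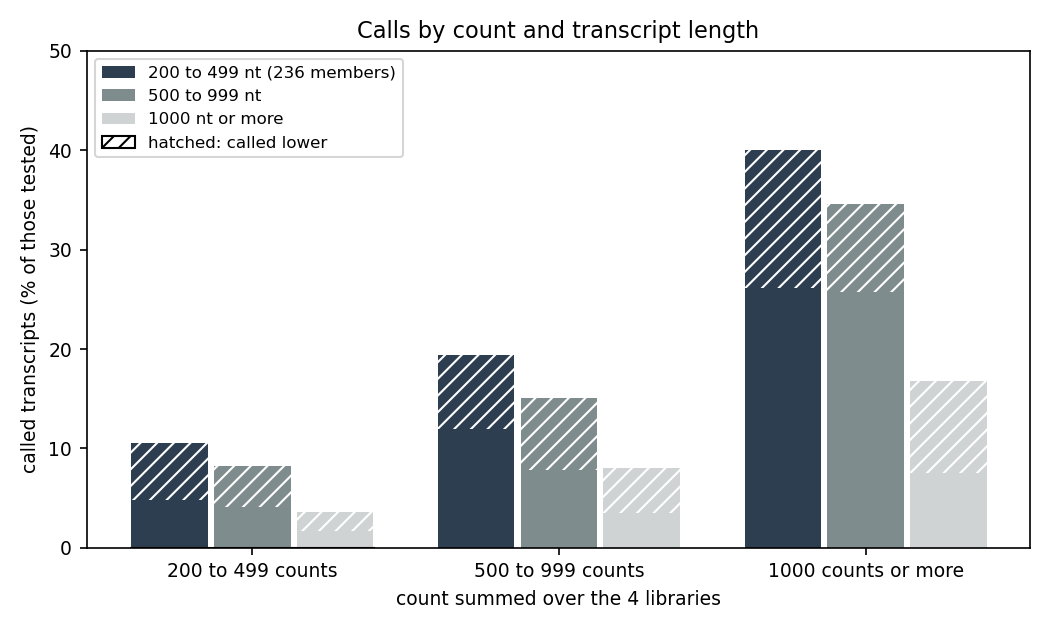
Percentage of tested transcripts called higher (solid) or lower (hatched) with thapsigargin in edgeR's quasi-likelihood test, by summed count (x axis) and transcript length (shade; uc007p and uc008q identifiers are left out of the shortest class only); bars start at 0. In each count range the 236 members and the transcripts of 500 nt to under 1000 nt stand above the transcripts of 1000 nt or more, reaching 40.0%, 34.6% and 16.8% at 1000 counts or more.

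The next longer transcripts were called at shares between those of the members and those of the longest class. Among 1132 transcripts of 500 nt to under 1000 nt with at least 200 counts, again without uc007p and uc008q identifiers, 10.4% were called higher and 6.45% lower; their median change was 0.03 on the log2 scale and their median summed count 568. With those identifiers kept there were 1177 transcripts, and in the 3 count ranges 8.27%, 15.1% and 34.6% of them were called. Transcripts of 1000 nt or more were called in 3.56%, 8.0% and 16.8%. Below the window the picture was one-sided: of 88 transcripts under 200 nt with at least 200 counts, with the same 88 left after that exclusion, 59 rose and 3 fell by the same test, and the median change was 1.59 on the log2 scale. These differences between length classes were not tested. Within it, 2 of the 27 members under 300 nt were called higher and another 2 lower (median -0.20). Of the 72 from 300 nt to under 400 nt, 14 were higher and 9 lower (median 0.02), and of the 137 from 400 nt up, 14 were higher and 9 lower (median 0.07). Across the 236 members, Spearman's rho of log2 fold change with length was 0.06, as a description.

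The strongest increases came to 3.98 and 3.86 times the DMSO level and stood clear of the spread between libraries. Transcript uc029sbd.1 (434 nt) was at 68.6 and 108 CPM (counts relative to library size after TMM scaling) with DMSO and at 333 and 346 CPM with thapsigargin. The DMSO replicates differed more than the thapsigargin replicates, yet the lowest thapsigargin value was far above the highest DMSO value. Its mean was 88.4 CPM ± 28.0 with DMSO and 339 ± 9.19 with thapsigargin (± SD, n = 2 in each group), and edgeR gave a log2 fold change of 1.99 ± 0.16 (SE) with an adjusted p of 1.09e-09. Per unit of length it went from 461 TPM ± 121 to 1583 TPM ± 25.3 (± SD, n = 2 in each group), and it ranked 5 among the members by mean TPM. The replicate 1 libraries gave a log2 ratio of 2.27 and the replicate 2 libraries 1.67.

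Transcript uc009emd.3 (439 nt) had 39.7 and 57.0 CPM with DMSO and 197 and 158 CPM with thapsigargin. Here both groups varied between libraries, but they did not overlap. The means were 48.4 ± 12.2 and 177 ± 27.7 CPM (± SD, n = 2 in each group), and edgeR gave a log2 fold change of 1.95 ± 0.16 (SE) with an adjusted p of 2.67e-09. On the length-corrected scale the levels were 250.0 TPM ± 49.3 and 821 TPM ± 163 (± SD, n = 2 in each group). Both transcripts were called in each of 14 other settings, with log2 fold changes from 1.65 to 2.30 and from 1.64 to 2.16. In all, 6 members were called higher with a log2 fold change above 1.5. The next largest increase after these 2 was 1.82.

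Several of the strongest increases sat beside the identifiers that the rule leaves out. Among the 11 members within 25 rows of a left-out transcript of the same length window in the deposited table, 4 were called higher, at 1.51, 1.70, 1.82 and 1.99, and the other 7 were not called. The median log2 fold change of the 11 was 0.44, against 0.03 for the other 225 members, of which 26 were called higher and 20 lower. The 39 left-out transcripts with at least 200 counts had a median of 1.44, and 22 of them were called higher. Windows of 10, 50 and 100 rows held 8, 15 and 21 members, of which 4, 4 and 5 were called higher. Their median log2 fold changes were 0.95, 0.38 and 0.44. The windows were chosen after these values were seen and carry no test, and the files do not say what order the rows follow.

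Decreases reached -1.47 on the log2 scale and included the most counted members. The 3 with the highest counts were all called lower. The most counted, 441 nt long, had 597 and 879 CPM with DMSO and 401 and 490 CPM with thapsigargin. In edgeR its log2 fold change was -0.72 ± 0.15 (SE) at an adjusted p of 0.00297. The DMSO libraries differed by nearly as much as the groups did, though all DMSO values lay above all thapsigargin values. Transcript uc009pzt.1 (468 nt), the next in count, was tighter, with 520 and 540 CPM against 336 and 327 CPM. Its mean fell from 530 ± 14.6 to 332 ± 6.10 CPM (± SD, n = 2 in each group), by edgeR a log2 fold change of -0.68 ± 0.12 (SE) at an adjusted p of 4.14e-04, and from 2588 TPM ± 77.6 to 1437 TPM ± 88.3. It was called in 13 of 14 other settings; limma on TPM gave -0.85 with an adjusted p of 0.0815. The next by count, 464 nt long, had 401 and 462 CPM with DMSO and 279 and 317 with thapsigargin (edgeR log2 fold change -0.53 ± 0.13 SE, adjusted p = 0.00745).

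The member with the smallest p among those that fell was uc011ztl.1 (360 nt), a transcript of moderate count. It was at 58.9 and 65.1 CPM with DMSO and at 28.6 and 27.0 CPM with thapsigargin. Replicates agreed closely in both groups and the groups were well apart. The means were 62.0 ± 4.37 and 27.8 ± 1.16 CPM (± SD, n = 2 in each group), edgeR's log2 fold change was -1.14 ± 0.16 (SE) at an adjusted p of 2.82e-05, and the length-corrected level went from 393 TPM ± 5.12 to 157 TPM ± 13.3. It was called in all 14 other settings, between -1.06 and -1.33.

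Of the 10 most counted members, 5 were called lower and 1 higher, with a median log2 fold change of -0.47, and 7 had both thapsigargin values below the DMSO values. Among the 20 most counted, however, 6 were lower and 5 higher, with a median of 0.04. Of all tested transcripts with at least 1000 counts, 18.4% were called. Both thapsigargin values lay below the DMSO values for 28.1% of those with at least 200 counts. No background was taken for transcripts counted as highly as these members. Over all members, rho of log2 fold change with summed count was 0.11, as a description.

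**Figure D2:**
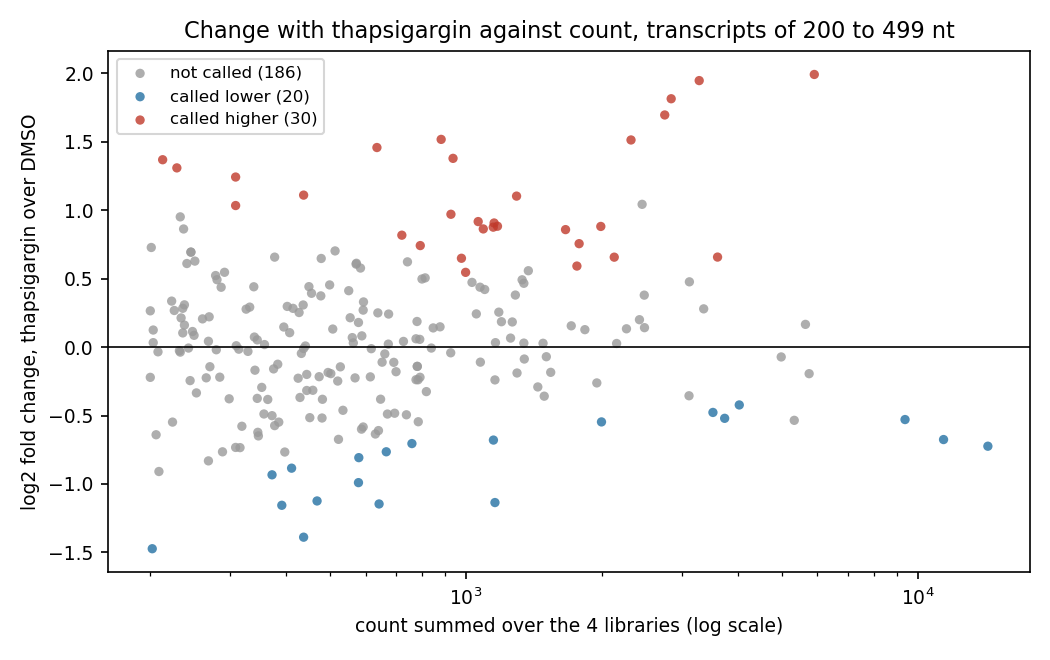
Log2 fold change, thapsigargin over DMSO (y axis), against the count summed over the 4 libraries (x axis, log scale) for the 236 members; each point is a transcript, coloured by its call in edgeR's quasi-likelihood test (30 higher, 20 lower, 186 not called). The 3 most counted members lie at the right below 0, and the increases reach 1.99.

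Some of the densest members were not called. Transcript uc007ggf.1 (406 nt) was at 167 and 251 CPM with DMSO and 170 and 223 CPM with thapsigargin. The replicate 2 library was the higher one in both groups, and the groups overlapped. The log2 fold change by edgeR was -0.07 ± 0.16 (SE; adjusted p = 0.861), and its sign turned in 3 of 14 other settings. Transcript uc008rje.3 (492 nt) was at 191 and 338 CPM with DMSO and 178 and 180 CPM with thapsigargin. Its log2 fold change by edgeR, -0.54 ± 0.22 (SE; adjusted p = 0.203), rested mainly on the high DMSO replicate 2 value: the log2 ratio was -0.10 for replicate 1 and -0.91 for replicate 2. It passed the threshold in 4 of 14 other settings; without DMSO replicate 1 its log2 fold change was -0.92 and the edgeR adjusted p 7.91e-04.

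**Figure D3:**
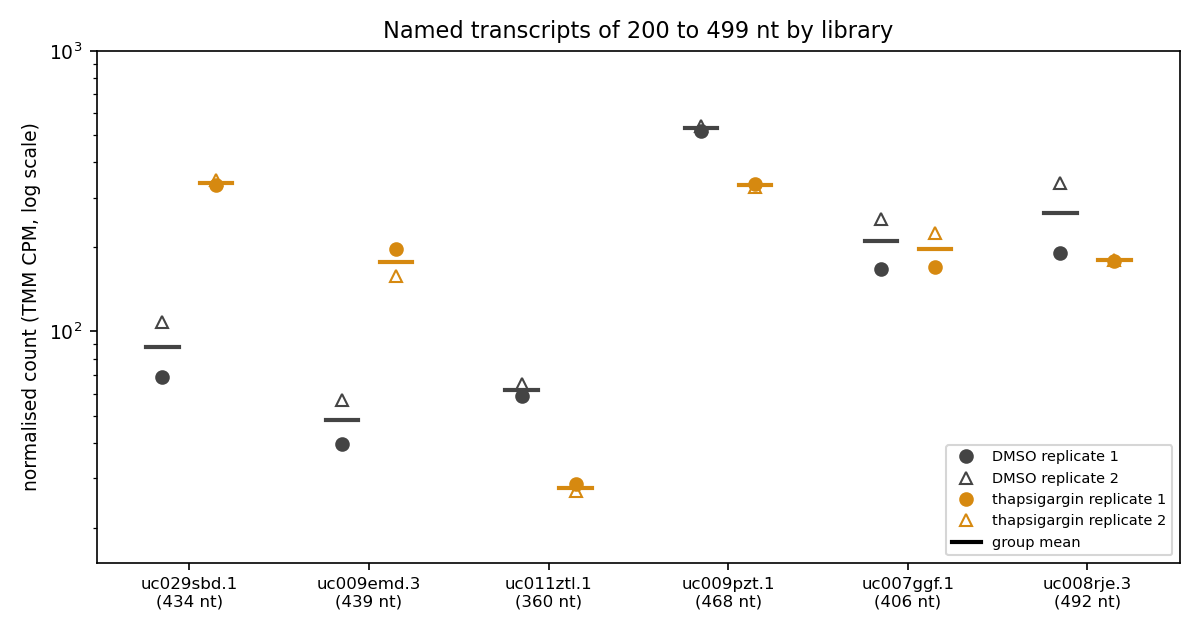
Normalised count (TMM-scaled CPM, log axis) of the 6 named members in each library; filled circles are replicate 1, open triangles replicate 2, and the horizontal bar is the group mean (n = 2). The groups are well apart for uc029sbd.1, uc009emd.3, uc011ztl.1 and uc009pzt.1, overlap for uc007ggf.1, and are separated in uc008rje.3 by a small margin below the lower DMSO value.

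The ratio of thapsigargin to DMSO was also taken within each replicate number. The ratios had the same sign in both for 176 of 236 members (74.6%), against 65.9% of all tested transcripts and 69.4% of those with at least 200 counts. All 50 called members had the same sign in both. That follows from their groups not overlapping in the same 4 libraries, so it is no separate support for the calls. Members called higher had log2 ratios from 0.36 to 2.30 in the replicate 1 libraries and from 0.38 to 2.20 in the replicate 2 libraries. Those called lower ran from -0.33 to -1.20 and from -0.50 to -2.09. Across members the paired ratios correlated with Pearson's r = 0.703 and Spearman's rho = 0.675, as a description over 236 transcripts that share libraries.

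**Figure D4:**
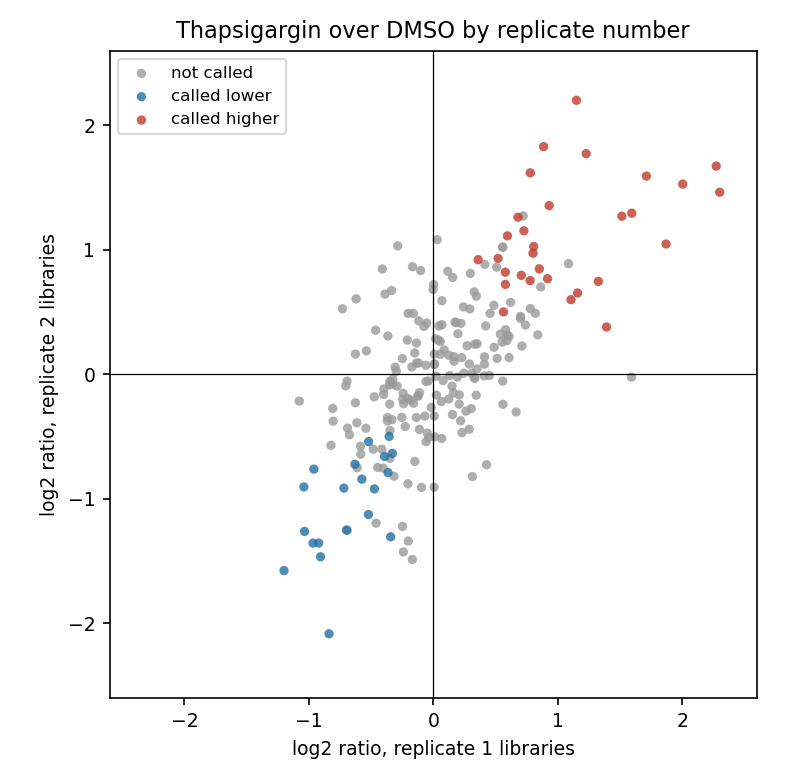
Log2 ratio of thapsigargin to DMSO in the replicate 2 libraries (y axis) against that in the replicate 1 libraries (x axis) for the 236 members, coloured by call in edgeR's quasi-likelihood test. All members called higher lie above 0 on both axes, with log2 ratios of at least 0.36, and all called lower lie below 0 on both. These positions follow from the groups of called members not overlapping in the same libraries.

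The members varied more than other well-counted transcripts, between replicates as well as between treatments. The SD over members of the log2 difference between replicates was 0.468 in the DMSO group and 0.364 in the thapsigargin group, against 0.394 and 0.304 over all tested transcripts with at least 200 counts. The SD of the log2 ratio between treatments was 0.603 and 0.701 in the replicate 1 and replicate 2 libraries, against 0.440 and 0.559. Differences above 1 in size on the log2 scale were found for 8 members between DMSO replicates, for 3 between thapsigargin replicates, and for 19 and 36 between treatments. Such differences were not counted over other transcripts. Of the 8, uc029six.1 differed by 3.10, and the SD was not taken without it.

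Some members stood next to each other in the table. In 17 runs of consecutive rows, 37 members had another member beside them, and in 14 of these runs all members lay on the same side of 0. The same share was not counted for adjacent rows of other transcripts. Members of some runs had nearly the same counts, so a shared direction there is no separate result. One run of 3 transcripts of 345 to 465 nt was called higher throughout, with log2 fold changes from 0.66 to 0.86 and edgeR adjusted p-values from 0.00123 to 0.00463. Another run of 3, from 342 to 481 nt with 3521 to 5750 counts each, ran from -0.52 to -0.19 and had 2 members called lower. Counted by run, the 50 calls came to 46. An adjacent row repeated a member's counts to within 10% in all 4 libraries for 27 members, 2 of them called higher and 4 lower, and reads shared between such rows would be counted more than once.

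As a group the members held a small part of each library. They took 0.873% of counts in DMSO replicate 1 (Wilson 95% interval 0.867 to 0.879), 0.889% in DMSO replicate 2 (0.878 to 0.901), 0.962% in thapsigargin replicate 1 (0.956 to 0.968) and 0.977% in thapsigargin replicate 2 (0.968 to 0.987). The intervals cover counting error only. The mean share was 0.881% ± 0.0116 with DMSO and 0.970% ± 0.0111 with thapsigargin (SD, n = 2 each), and the groups did not overlap; an exact permutation test over the 6 assignments of 4 libraries cannot give a two-sided p below 0.3333. When the single most abundant transcript of the table was taken out of the total, the shares were 0.998% and 1.09% with DMSO and 1.06% and 1.07% with thapsigargin, and the groups overlapped. Of all TPM the members held 5.09% and 5.17% with DMSO and 4.78% and 4.62% with thapsigargin. The share therefore went up in counts and down in TPM, so no single direction holds for the members as a group.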

How the data were processed

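The authors deposited a table of raw counts per transcript and a table of TPM for the same transcripts and libraries, per the file headers. Replicates were not pooled. The submitters' processing notes name cutadapt 4.1, STAR 2.7.0d and the mouse builds mm10 and GRCm38; the counting tool, the annotation release and the handling of multiply mapped and duplicate reads are not given in the sources used here. The columns named Rest were matched to samples by title. Those named Stress were taken as the thapsigargin samples, since the treatment protocol says that thapsigargin was used to induce endoplasmic reticulum stress.

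Length was recovered from the ratio of count to TPM within a library, scaled by a fixed length for the reference transcript uc012ath.2; every transcript with a count came out within 0.001 nt of a whole number. No identifier (0) matched the RefSeq gene table. The test on counts used edgeR 4.0.16 under R 4.3.3: filterByExpr, TMM scaling, a robust quasi-likelihood F test without a block, and Benjamini-Hochberg adjustment over all tested transcripts. CPM values are TMM-scaled. Log2 ratios between single libraries used a prior count. The SE beside each edgeR log2 fold change is not an output of the edgeR test. It was calculated from the unshrunken fitted coefficient and the F statistic. The test was checked on simulated counts: it recovered most changed transcripts and kept the nominal rate of small p-values, but the share of false calls exceeded the nominal level when dispersions varied between transcripts. Alternatives included DESeq2 1.42.0, limma 3.58.1 on log2(TPM + 0.5), limma-voom, other scalings and filters, the replicate number as a block, and leaving out each library.

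The members, lists and rules were chosen with earlier results of these data known. Named transcripts are the 2 members with the smallest p in each direction whose groups do not overlap, and the 2 of highest mean TPM among those not called; any other member described was chosen after its values were seen. In the absence of gene names, the planned gene lists and marker checks were not run.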

Additional observations from a re-analysis of the deposited data

How the results depend on the processing

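Each of the 50 called members kept its direction in all 14 settings that refitted the data, and 15 of them (9 higher, 6 lower) were called in each of the 10 settings that kept all libraries. With all libraries kept, the number of called members moved beyond 1.5 times with DESeq2 (31 calls, 9 lower) and limma on TPM (25 calls, 10 higher). Over all tested transcripts these settings called 3.69% and 2.37%, against 7.41% in the main fit. Adjusted p-values of 3 of the 50 were missing in DESeq2. Fits that left out a library, which assume that the lone library of a group varies like the other group, gave 33 to 41 calls, 22 to 24 of them higher and 9 to 19 lower, a median log2 fold change of 0.0188 to 0.0675, and a difference in share of 0.0801 to 0.0964 percentage points in counts and -0.503 to -0.348 in TPM. Each fit that left out a library also called a smaller share of all tested transcripts than the 7.41% of the main fit. The fall in calls in these fits was thus not particular to the members. The members' median log2 fold change was 0.11 under library-size scaling and -0.13 on TPM. The median of all transcripts was 0.07 and -0.15 in the same settings. The median was 0.0676 for members with at least 500 counts and 0.13 with the uc007p and uc008q identifiers kept. Keeping those identifiers gave 52 members called higher, and moved the thapsigargin minus DMSO difference in share to 0.777 percentage points in counts and to 2.31 in TPM, from 0.0882 and -0.425. Without the most abundant transcript in the total these differences were 0.0224 and -0.620, and with at least 500 counts the TPM difference was -0.295. With the replicate block, 72 members were called, 43 higher and 29 lower, including all 50, and 12.4% of all tested transcripts; the titles do not say that a number marks a shared preparation, and replicate differences of the groups correlated with r = 0.0844 over all tested transcripts. The log2 fold change of uc007ggf.1 turned positive under library-size scaling (0.0171), without DMSO replicate 2 (0.22) and without thapsigargin replicate 1 (0.11), and was -0.36 without DMSO replicate 1. The cause of these movements was not tested. Depth limits the members with few counts: in the shallowest library the median member had 51.5 counts, and the median standard error of members not called was 0.24 on the log2 scale.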

Other observations

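A few members differed between replicate numbers more than between treatments. Transcript uc029six.1 (325 nt), met above, had 5.91 and 53.0 CPM with DMSO and 18.4 and 52.1 CPM with thapsigargin. Replicate 2 was thus the higher library in both groups. For this transcript edgeR gave a log2 fold change of 0.58 ± 1.62 (SE) with an adjusted p of 0.904. A 448-nt transcript showed the same order, with 44.9 and 101 CPM against 95.7 and 186 CPM. Its log2 fold change of 1.04 ± 0.71 (SE) was the highest among members not called by edgeR (adjusted p = 0.566). A 490-nt transcript was at 21.5 and 38.2 CPM with DMSO and at 25.5 and 55.7 CPM with thapsigargin. Replicate differences of the groups correlated with r = 0.265 over the members and 0.0844 over all tested transcripts, as a description. These 3 transcripts were picked for their values.

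A 327-nt transcript went the other way between the DMSO libraries, with 29.7 and 10.3 CPM, against 24.3 and 21.4 CPM with thapsigargin. The member that fell furthest, 464 nt long (edgeR log2 fold change -1.47 ± 0.38 SE, adjusted p = 0.0148), had 88 and 45 counts with DMSO and 51 and 18 with thapsigargin, so its size rests on few counts.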
